A study of Rattus norvegicus with 4 samples.

Results

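Glutamate and GABA receptor subunits were followed through neuron removal on rat whole-genome arrays. The set comprised every non-control probe whose gene name denotes a subunit of an AMPA, NMDA, kainate or delta receptor (Gria, Grin, Grik, Grid), a metabotropic glutamate receptor (Grm), a GABA-A receptor (Gabr) or a GABA-B receptor (Gabbr). This gave 57 of 41012 probes. They represented 46 of 35731 genes. Values are given for 41 subunits, of which 24 belong to glutamate receptors and 17 to GABA receptors, and all counts below are over these 41. No probe carried the name Gabra2.

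Primary astrocytes came from the cortex of Wistar rat pups (P1), and the neurons plated onto them came from hippocampi of E18 mouse embryos. Co-culture (CC) held both cell types and was not treated. Co-culture cold jet (CC-CJ) was the same culture after a stream of ice-cold phosphate buffered saline had detached neurons. Astrocyte-alone cold jet (AA-CJ) was astrocytes that never received neurons and were given the same stream. Each of the 4 arrays held CC-CJ in the Cy3 channel, hybridised against Cy5-labelled CC on 2 arrays and against Cy5-labelled AA-CJ on the other two. Dyes were not swapped, so within an array dye and condition cannot be told apart. CC and AA-CJ both carried Cy5. Whether CC-CJ on both kinds of array came from the same extracts is not given in the sources used here, so its 4 values per gene are called readings. Replicates were described as different pools of animals, and the p-values measure only the spread between these arrays. Mouse mRNA was read by probes designed for rat, and how well each mouse subunit mRNA binds was not tested.

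Ionotropic receptors are ion channels built from several subunits, whereas metabotropic receptors act through G proteins. Glutamate opens AMPA, NMDA and kainate channels at excitatory synapses, and GABA opens the chloride-conducting GABA-A channel at inhibitory synapses. GABA-B receptors are obligate heterodimers of Gabbr1 and Gabbr2. Neurons are the main site of these receptors in the hippocampus, but astrocytes are known to carry some of them, among them metabotropic glutamate receptors and both classes of GABA receptor.

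All 4 arrays lay on 1 slide. Between 50.1% and 62.6% of all probes were well above background per channel, and no subunit spot was saturated. Precision is limited by there being 2 arrays for each comparison. The labelled cell types were checked with marker genes. All 11 astrocyte markers were well above background in AA-CJ on both arrays. So were 4 of 5 fibroblast, 6 of 8 oligodendrocyte lineage and 2 of 7 microglia markers, and a subunit detected in these cultures is not thereby placed in astrocytes. All 12 neuron markers with a probe were well above background in CC on both arrays. In AA-CJ, 8 of these 12 were also above background, so those probes are not silent without neurons. Excitatory neurons were represented in CC by Slc17a6, whereas Slc17a7 was not well above background on any array. Inhibitory neurons were represented by Gad2 and Slc32a1, whereas Gad1, with 3 probes, was well above background on neither CC array.

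Detection was considered first. A subunit was taken as detected in a group when at least 1 of its probes was well above the local background on both arrays of that group. In CC, 20 of the 41 subunits were detected. After cold jet, 14 were detected in CC-CJ of the CC arrays, and the number was also 14 in CC-CJ of the AA-CJ arrays. In AA-CJ, 12 were detected. These 12 were also detected in CC and in CC-CJ of both kinds of array. They were Gria2, Gria3, Gria4, Grin1, Grin3b, Grik5, Grm2, Grm3, Gabrd, Gabrq, Gabbr1 and Gabbr2. Gabra4 and Gabrb1 were detected in CC and in CC-CJ but not on both arrays of AA-CJ. The other 6, namely Gria1, Grik3, Grik4, Grm4, Grm7 and Gabra5, were detected on both arrays in CC alone.

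By family, all 4 AMPA receptor subunits were detected in CC. Of 7 NMDA receptor subunits, only the obligatory subunit Grin1 and the glycine-binding subunit Grin3b were detected in CC. The glutamate-binding subunits Grin2a, Grin2b and Grin2c and the subunit Grin3a were well above background on no array. Grin2d gave no value, because its spot carried an outlier mark on all 4 arrays. Of 5 kainate receptor subunits, 3 were detected (Grik3, Grik4, Grik5). The delta receptor subunit Grid1 and the group I metabotropic receptor Grm5 were seen on no array. Both group II metabotropic receptors, Grm2 and Grm3, were detected. Group III was represented by Grm4 and Grm7, while Grm6 and Grm8 were not detected. Of the GABA-A receptor subunits, the alpha subunits Gabra4 and Gabra5 and the beta subunit Gabrb1 were detected in CC, whereas Gabra3, Gabra6, Gabrb2, Gabrg1, Gabrg3 and the rho subunits Gabrr1, Gabrr2 and Gabrr3 were not. Gabrd and Gabrq, the delta and theta subunits, were detected, and Gabre and Gabrp were not. A probe that was not well above background on these arrays gives no evidence that its mRNA was absent.

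**Figure D1:**
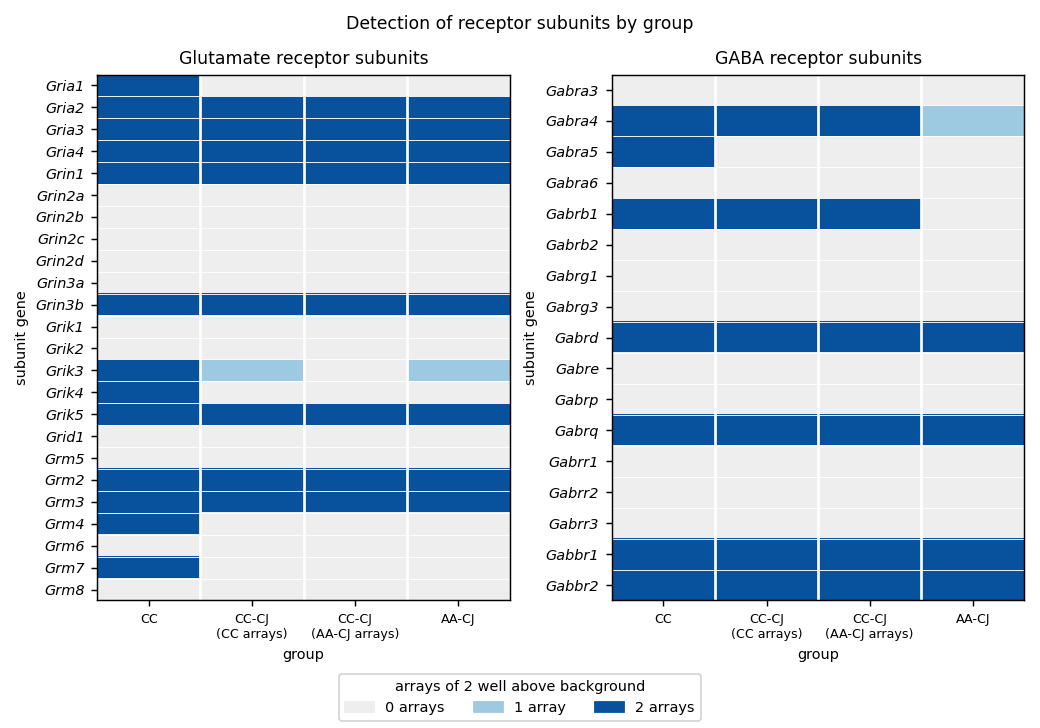
Each row is 1 of the 41 subunit genes and each column 1 group of RNA, and the colour gives on how many of the 2 arrays of the group at least 1 probe was well above background. In CC 20 subunits were detected on both arrays, against 14 in CC-CJ and 12 in AA-CJ.

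A gene was tested when a probe was well above background on both arrays of at least 1 group. This filter kept 20 of the 41 subunits and 21426 genes in all. Of the 20, 6 passed only through CC, and had a bright sample there by construction. Counts and medians over the 20 therefore lean towards a fall with cold jet, and towards a higher level in CC than in AA-CJ. They are given as a description. M denotes log2 of Cy3 over Cy5, so a negative M is a lower level in CC-CJ than in its partner. Levels of single samples are normalised intensities on a linear scale. They can be compared between groups for one gene, but not between genes. A call is an adjusted p under 0.05 from limma with Benjamini-Hochberg adjustment over all 21426 genes, two-sided.

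The comparison of CC-CJ with CC asked which subunit mRNAs were lower after the stream that detaches neurons. After cold jet, 5 of the 20 tested subunits were called lower and none higher. Across all genes tested, 2.25% were called lower and 0.098% higher. Unadjusted, 8 subunits were lower with a p under 0.05 and 0 were higher. Among all 21426 genes, 3630 had such a p, both directions together. The median M of the 20 was -0.21, against -0.02 for all genes tested. The 5 were the AMPA receptor subunits Gria1 and Gria4, the NMDA receptor subunit Grin1, the GABA-A receptor subunit Gabrb1 and the GABA-B receptor subunit Gabbr2. They were picked by this call, so what is said below on overlap of their samples is a description and no further support. In these bulk samples fewer neurons and less mRNA per neuron cannot be told apart. Markers of other cells were lower too. Of 4 fibroblast markers tested, 2 were called lower (Dcn, M -0.77, and Col1a2, M -0.59), and their summed level was 37680 and 37770 in CC against 30250 and 28140 in CC-CJ. Of 7 oligodendrocyte lineage markers, 1 was (Sox10, M -1.12), with a summed level of 3256 and 3877 against 2943 and 2734. Of 5 microglia markers, 3 were (C1qa, M -1.06, Tyrobp, M -0.74, and Aif1, M -0.53), with a summed level of 1225 and 1210 against 789 and 749.2. Their part in the subunit values was not tested. Of 11 astrocyte markers limma called none. Of the 12 subunits detected in all groups, 3 were among the 5 (Gria4, Grin1 and Gabbr2), Gria4 with only 1 of its 2 probes above background in every group.

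Gabbr2 is the G protein-coupling subunit of the GABA-B receptor. The 2 CC samples read 769.6 and 756. CC-CJ read 233.2 and 255.1 on those arrays and 234.2 and 255.9 on the AA-CJ arrays, where AA-CJ itself read 304.6 and 271. Both CC samples lay above all 6 others, and both AA-CJ samples lay above all 4 CC-CJ readings. M was -1.72 and -1.57, with a mean of -1.64 (SE 0.10, adjusted p = 0.000456). CC exceeded AA-CJ by 1.41 on the log2 scale (SE 0.14, adjusted p = 0.00419), a call that was lost with Feature Extraction's processed signals (log2 difference 1.67, adjusted p = 0.0776). CC-CJ and AA-CJ differed by -0.23 (95% interval -0.47 to 0.01, adjusted p = 0.24), a difference that did not pass.

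Grin1 is the subunit that every NMDA receptor contains. It measured 395.5 and 384.2 in CC, 167.7 and 170.8 in CC-CJ on the CC arrays, 151.5 and 153.4 in CC-CJ on the other arrays, and 137 and 138.4 in AA-CJ. The CC samples did not overlap with any other, and the AA-CJ samples were the lowest. The mean M was -1.20 (SE 0.08, adjusted p = 0.000556), and CC was 1.35 above AA-CJ on the log2 scale (SE 0.11, adjusted p = 0.00166). With no filter on dim probes, which averages in a second probe, these values were -0.54 (adjusted p = 0.0174) and 0.59 (adjusted p = 0.0496).

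Gria1, an AMPA receptor subunit, measured 122.5 and 137.4 in CC and 79.9 and 81.2 in CC-CJ on the same arrays. It was not well above background outside CC, and CC did not overlap with CC-CJ. Gria1 was tested only because it was bright in CC, so its calls against CC-CJ and AA-CJ lean that way and are a description. For a probe that is below background in a group, only a bound can be given there. Gria1 was at least 1.61-fold lower in CC-CJ than in CC (M -0.62 and -0.76, adjusted p = 0.00883). Gria1 was called higher in CC than in AA-CJ too (adjusted p = 0.0284). The levels, set side by side across arrays, put that difference at no less than 1.89-fold, whereas the fit through CC-CJ gave a smaller log2 difference of 0.73, so its size is not settled. The first call was lost without the second CC array (adjusted p = 0.118).

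**Figure D2:**
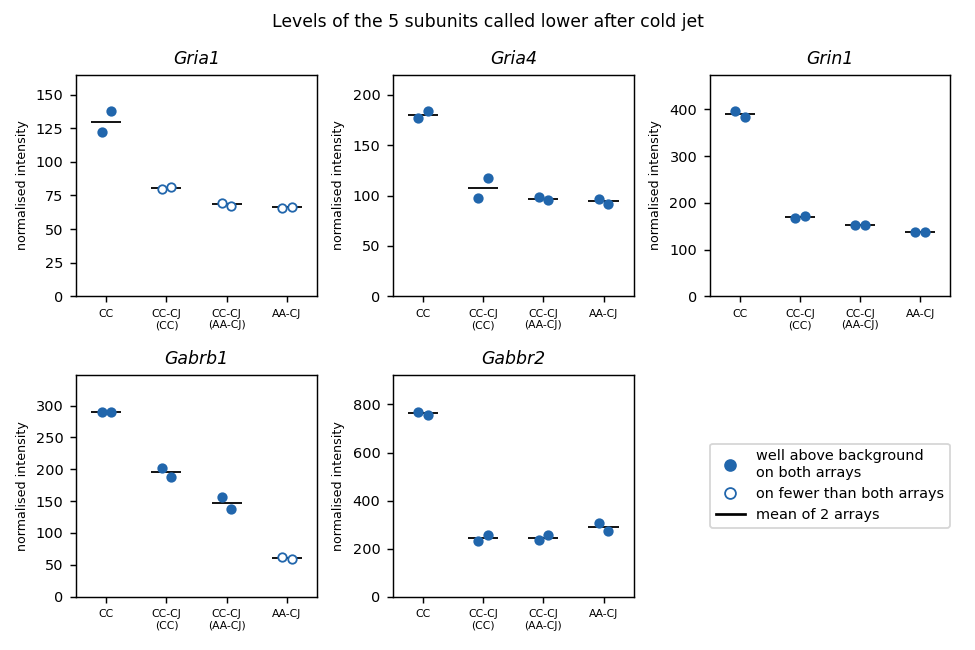
Normalised intensity (linear axis from 0) of the 5 subunits called lower after cold jet, with each point 1 reading and each line the mean of 2, for CC, CC-CJ on the CC arrays, CC-CJ on the AA-CJ arrays and AA-CJ. In all 5 genes the CC samples lie highest, and in Gabrb1, Grin1 and Gria1 the 4 CC-CJ readings lie between those of CC and AA-CJ.

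Gria4, another AMPA receptor subunit, measured 176.6 and 183.5 in CC, 97.3 and 117.6 in CC-CJ on the same arrays and 96.3 and 92 in AA-CJ. As the mean of its probes it was called lower after cold jet, with no overlap of CC with the rest (M -0.86 and -0.64, adjusted p = 0.00808). Its 2 probes did not give the same value. The probe at chr8:963017-963076 of build rn4 was below background in CC-CJ on the CC arrays, where its M of -1.42 and -1.27 is as measured, and well above it in CC-CJ on the AA-CJ arrays. The probe at chr8:957385-957444 had M of -0.30 and -0.02, and was well above background in every sample. Tested one by one, the first was called (adjusted p = 0.000423) and the second was not (adjusted p = 0.477). In AA-CJ, too, the first probe was above background on neither array. The value for the gene thus stands for neither probe.

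In 3 more genes, differences between probes touch a value given here. The Gria2 probe at chr2:172266889-172266948 (rn4) had a mean M of -0.59 (adjusted p = 0.0235), and the one at chr2:172266587-172266646 a mean M of 0.02 (adjusted p = 0.935). Gria2, the subunit that makes AMPA channels impermeable to calcium, was not called as a gene (M -0.29, adjusted p = 0.155). The second probe of Grin1 was above background in no group, with a mean M of 0.13 in place of the -1.20 of the tested probe. Gabbr1, the ligand-binding GABA-B subunit, had probes with a mean M of -0.52 and -0.12, neither of them called. A further probe, which the files describe as GABA-B receptor subunit 1 under another name, was well above background in each group and had M of 0.05 and -0.01 (adjusted p = 0.944). Differences in sign between the probes of Gabre, Grm3, Grm6 and Grm7 involved at least 1 probe that did not pass the filter.

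**Figure D3:**
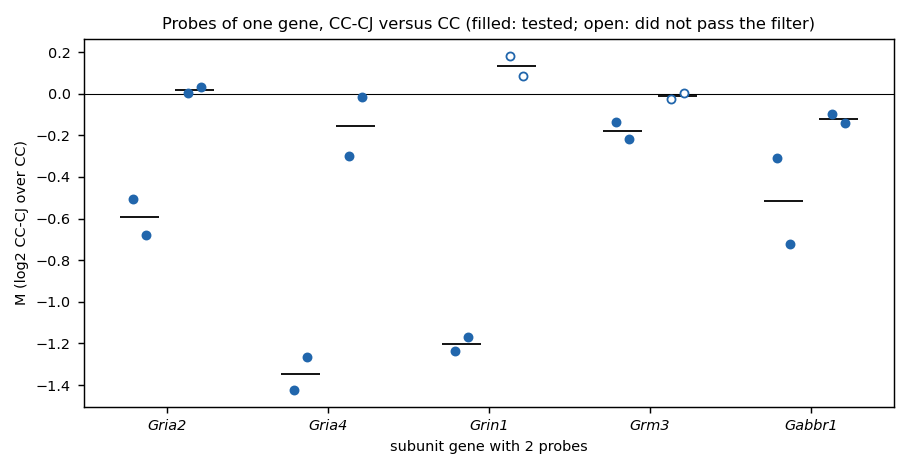
M (log2 of CC-CJ over CC) of each probe of 5 subunits that have 2 probes, with 1 point per array, the mean as a line, and open points for probes that did not pass the filter. The probes of Gria4 lie at -1.34 and -0.16 and those of Gria2 at -0.59 and 0.02.

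The comparison of CC-CJ with AA-CJ asked which mRNAs differ between astrocytes that had been grown with neurons and astrocytes that had not. Here 1 of the 20 tested subunits was called, and it was higher. It passed the filter through co-culture groups alone, as Gabra4 did, so this count leans towards a higher CC-CJ. The background was 1.94% called higher and 1.15% called lower. Unadjusted, 3 subunits were higher with a p under 0.05 and 0 were lower. Among all 21426 genes, 4841 had such a p, both directions together. The median M was 0.04, against -0.01 for all genes tested. Under median centring in place of loess, 9 subunits were called, 3 higher and 6 lower, and 13255 of all 21426 genes were called in either direction. That setting leaves the median of all genes at -0.48.

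The called subunit was Gabrb1, a GABA-A receptor beta subunit that helps to form the GABA binding site. Its probe lies at chr14:38530433-38530492 (rn4). It read 289.9 and 290.2 in CC, with CC-CJ on those arrays at 201.9 and 188.1. On the other arrays CC-CJ read 156.6 and 137.1, and AA-CJ read 62 and 59.2. All 4 CC-CJ readings lay between CC and AA-CJ, with no overlap on either side. On neither array did AA-CJ rise well above background. Gabrb1 thus passed the filter only through the co-culture groups. Its calls against AA-CJ therefore lean towards a high co-culture level and are a description. In CC-CJ, Gabrb1 was at least 2.14-fold higher than in AA-CJ (M 1.34 and 1.21, adjusted p = 0.00166). CC was called higher than AA-CJ as well (adjusted p = 0.000597), with no less than 4.24-fold from the levels across arrays and a smaller log2 difference of 1.85 from the fit through CC-CJ, so this size is not settled either. It was called lower after cold jet (M -0.52 and -0.63, SE 0.08, adjusted p = 0.0199). That call was lost without the first or the second CC array. It was also lost with Feature Extraction's processed signals (M -0.79, adjusted p = 0.203) and with arrays blocked by replicate number (adjusted p = 0.06). The difference between CC-CJ and AA-CJ was called whichever single array was left out.

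Of the 19 subunits not called, M ran from -0.23 in Gabbr2 to 0.35 in Gria3. Gria3, an AMPA receptor subunit, had M of 0.42 and 0.29 (adjusted p = 0.0978). CC-CJ read 230.7 and 284.2, and AA-CJ 172.3 and 232.8, so the groups overlapped in level though M was above 0 on both arrays. Gabra4, an alpha subunit of extrasynaptic GABA-A receptors, had a mean M of 0.35 as well (95% interval 0.11 to 0.58, adjusted p = 0.103).

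**Figure D4:**
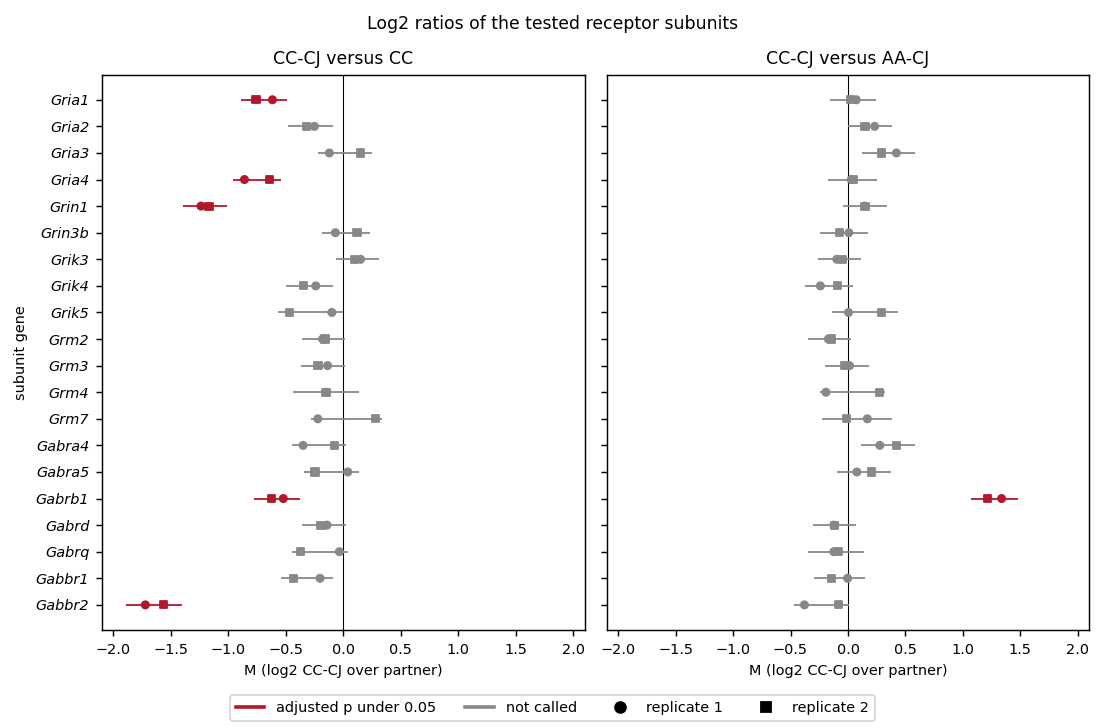
M of the 20 tested subunits in CC-CJ versus CC (left) and CC-CJ versus AA-CJ (right), with a circle for replicate 1, a square for replicate 2 and a line for the 95% interval from limma. On the left 5 subunits are called, all below 0, and on the right Gabrb1 is called, above 0.

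The share of each mRNA that stayed after cold jet was then computed as CC-CJ minus AA-CJ over CC minus AA-CJ, in percent, on the linear scale. It was given for subunits detected in CC that were at least 2-fold higher in CC than in AA-CJ, which 3 subunits were. CC-CJ was taken from the CC arrays. As an alternative chosen after seeing the data, it was taken from the AA-CJ arrays. Either way levels of separate arrays stand side by side, and there is no test. For Grin1, 11.9% and 13.2% remained in replicates 1 and 2, and 5.61% and 6.09% with CC-CJ of the AA-CJ arrays. Gabbr2 came out at -15.3% and -3.28%, below 0 because CC-CJ lay under AA-CJ, and at -15.1% and -3.11% with the other readings. For Gabrb1, 61.4% and 55.8% remained, and 41.5% and 33.7% with the other readings. The median of the 3 was 12.5%, or 5.85%. The size of a share thus depends on which CC-CJ readings are used.

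Neuron markers gave the scale for these shares. Of the 12 tested, 7 were called lower after cold jet, and Syt1, Stmn2, Map2, Nefm and Syn1 were not, with M from -0.48 in Nefm to 0.00 in Stmn2. The 2-fold criterion was met by 6, of which Snap25 was above background in no CC-CJ reading and is left out. Over the other 5 the median was 8.42%, from 4.91% for Dcx to 13.9% for Tubb3. With CC-CJ of the AA-CJ arrays it was 3.3%, from 2.51% for Dcx to 10.6% for Gap43, and Tubb3 stood at 2.65%. Slc32a1, the vesicular GABA transporter of inhibitory neurons, stood at 13%, or 7.78%. With either set of readings the mean for Grin1 lay within the range of these 5 neuron markers, while Gabrb1 lay above all 5 in both replicates. Markers of another cell type also stayed behind. Of 7 microglia markers, 5 were tested, Itgam and Cx3cr1 were well above background on no array, and 3 were called lower after cold jet. The summed level of the 5 was 1225 and 1210 in CC, 789 and 749.2 in CC-CJ on the CC arrays, 689.6 and 667.7 in CC-CJ on the AA-CJ arrays, and 479.1 and 570.1 in AA-CJ. C1qa kept 38.1%, or 24.4%, and Tyrobp 43.2%, or 28.9%. In CC-CJ both were called higher than in AA-CJ (adjusted p = 0.00258 and 0.00956), where C1qa was above background on no array. In the same comparison 4 neuron markers were called higher, with M of 2.03 for Gap43 and 0.63 for Mapt. The other two, Dcx and Elavl4, were above background on no AA-CJ array. Of 11 astrocyte markers 2 were called higher as well, Aqp4 (M 0.51, adjusted p = 0.0311) and Fabp7 (M 0.42, adjusted p = 0.0471). The summed level of the 11 was 88030 and 91790 in CC-CJ against 71790 and 78800 in AA-CJ. Within it, Fabp7 alone was 48620 and 51280 against 36010 and 38950. The median M of the 11 was -0.01, and 6 of them lay below 0. The part of remaining neuronal or microglial RNA, or of the astrocyte level, in the Gabrb1 value was not tested.

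**Figure D5:**
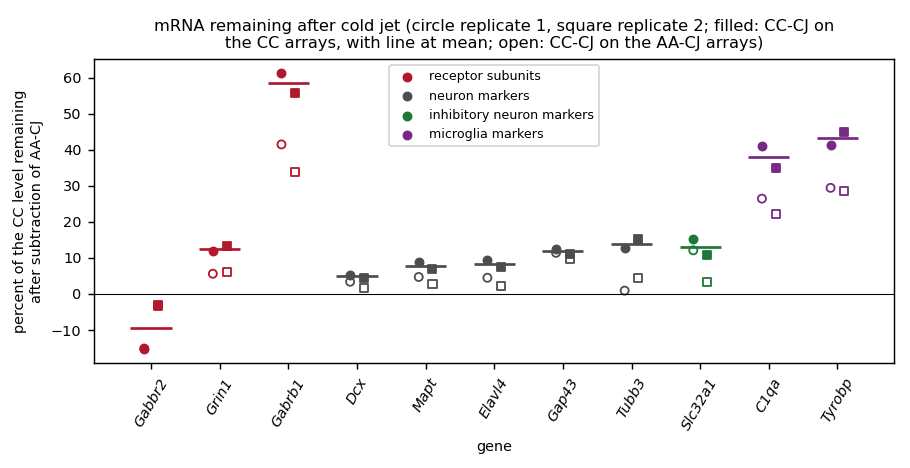
Percent of the CC level left after cold jet, with the AA-CJ level subtracted, for 3 receptor subunits, 5 neuron markers, 1 inhibitory neuron marker and 2 microglia markers, with circles for replicate 1, squares for replicate 2, filled points for CC-CJ on the CC arrays with a line at their mean, and open points for CC-CJ on the AA-CJ arrays. Gabrb1 has a mean of 58.6% with the former and 37.6% with the latter, and Gabbr2 lies below 0 with both.

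CC and AA-CJ were compared through CC-CJ, as the difference of the other two comparisons. They therefore share samples, and the 3 sets of values are not independent. In CC, 5 of the 20 tested subunits were called higher than in AA-CJ and 0 were lower. This count leans towards a high CC through the filter. Of the 5, Gria1 passed only through CC, and Gabrb1 only through CC and CC-CJ. Among the 12 subunits detected in every group, 3 were called higher, namely Gabbr2, Grin1 and Gria4. Tested one by one, the Gria4 probe above background in every group differed by 0.06 (adjusted p = 0.86). The other Gria4 probe, above background on no AA-CJ array, differed by 1.52 (adjusted p = 0.00129). Across all genes 2.58% were called higher and 0.0793% lower. Unadjusted, 9 subunits were higher with a p under 0.05 and 0 were lower. Among all 21426 genes, 3799 had such a p, both directions together. Of the markers tested, 6 of 12 neuron and 2 of 2 inhibitory neuron markers were also called higher in CC, with Gad1 untested. So were 3 of 5 microglia (C1qa, Tyrobp, Aif1) and 1 of 4 fibroblast markers (Dcn, 0.66, adjusted p = 0.042). The part of all these in the subunit values was not tested. The median log2 difference was 0.24, against 0.00 for all genes tested. The 5 were Gabbr2 (1.41) and Grin1 (1.35), Gabrb1 and Gria1, both below background in AA-CJ, and Gria4 as the mean of its probes (adjusted p = 0.0275). The calls of Gria1 and Gria4 each depended on single arrays. Without AA-CJ replicate 1 or 2, neither passed (adjusted p = 0.0841 and 0.0542 for Gria1, 0.071 and 0.0597 for Gria4). Gria1 was also lost without CC replicate 2 (adjusted p = 0.12) and Gria4 without CC replicate 1 (adjusted p = 0.0786). Among those not called, Gria2 differed by 0.48 (adjusted p = 0.0987) and Grik5 by 0.43 (adjusted p = 0.253).

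The 12 subunits detected in AA-CJ were followed through all comparisons. None was called between CC-CJ and AA-CJ by limma, and 1 of them, Gria3, had an unadjusted p under 0.05. The lowest limit of their 95% intervals was -0.47 and the highest 0.59 on the log2 scale. Of the 12, 9 were called in no comparison. Where a single pair of CC-CJ levels is given for one of the 12 here, it is that on the AA-CJ arrays. Grm3, the metabotropic receptor known as the main group II receptor of astrocytes, measured 247.4 and 247.5 in AA-CJ, 249.6 and 242 in CC-CJ on the same arrays, 267.1 and 227.8 in CC-CJ on the CC arrays, and 293.7 and 265.3 in CC. CC and CC-CJ overlapped, and its log2 differences of -0.18, -0.01 and 0.17 (CC-CJ against CC, CC-CJ against AA-CJ, CC against AA-CJ) did not pass. The other group II receptor, Grm2, measured 486.1 and 490.3 in AA-CJ, 431.9 and 443.5 in CC-CJ, and 500.1 and 450.4 in untreated CC. Its M was -0.16 against AA-CJ and -0.17 against CC, and CC and AA-CJ differed by 0.01.

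Gabrd, the delta subunit of extrasynaptic GABA-A receptors, gave a like picture, with M of -0.12 against AA-CJ and -0.17 against CC and a difference of 0.05 between CC and AA-CJ. For these genes the Cy3 sample was the lower one against either partner, and a dye effect cannot be told apart from a low level in CC-CJ. Gabrq, the theta subunit, measured 682.2 and 561.6 in AA-CJ, 626.1 and 529.9 in CC-CJ, and 583.8 and 708.7 in untreated CC. CC overlapped with AA-CJ, but not with CC-CJ on its own arrays (570.1 and 546.3). Its log2 differences were -0.20, -0.10 and 0.10 in the same order as for Grm3. Gabbr1 measured 182.4 and 190.7 in AA-CJ, 182 and 172.8 in CC-CJ, and 204 and 241.9 in untreated CC, and its values were -0.32, -0.07 and 0.24. Its partner Gabbr2, unlike Gabbr1, was called in 2 comparisons. The difference between the pair was not tested.

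Among the ionotropic glutamate receptors, Gria2 measured 81.1 and 85.1 in AA-CJ, 95.3 and 94.3 in CC-CJ, and 118.9 and 125.9 in untreated CC. The groups did not overlap, yet M against AA-CJ was 0.19 with an adjusted p of 0.229. Gria3 had log2 differences of 0.01, 0.35 and 0.34 in the order given above. Grik5, a high-affinity kainate receptor subunit, measured 164.3 and 134.1 in AA-CJ, 164.8 and 164 in CC-CJ, and 161.5 and 233.2 in untreated CC, so its CC samples lay far apart. Its values were -0.28, 0.15 and 0.43. Grin3b measured 102.8 and 91.8 in AA-CJ, 103.3 and 87.2 in CC-CJ, and 99.3 and 88.8 in untreated CC, with overlapping groups and differences of 0.02, -0.03 and -0.06.

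The remaining tested subunits were seen in CC near the background. Grik3, Grik4, Grm4, Grm7 and Gabra5 were called in no comparison. With CC-CJ against CC, the 15 subunits not called had M from -0.32 in Gabbr1 to 0.12 in Grik3. Grik3, a kainate receptor subunit, had 108.3 and 78.6 in CC against 120.2 and 84.1 in CC-CJ, and the groups overlapped. Another probe outside the name rule, described in the files as an alpha-2 GABA-A subunit, was above background in CC alone, with M of -0.26 and -0.37 against CC (adjusted p = 0.139).

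Scaffold, auxiliary and trafficking proteins of these receptors were taken as the other genes of the pathway. Of 45 such genes with a probe, 39 were tested. In CC-CJ against CC, 4 were called lower and 0 higher, where 2.25% and 0.098% of all genes were, and the median M of the 39 was -0.15 against -0.02 for all genes. Dlg2, Dlgap3, Shank2, Shank3, Grip1, Cacng2, Cacng8 and Nsf passed the filter only through CC. Counts and medians over the 39 therefore lean towards a high CC, as for the subunits. None of the 4 called was among these genes. Homer2, a scaffold that binds group I metabotropic receptors, had the largest fall (M -0.98, adjusted p = 0.00618). It measured 183.6 and 240.8 in CC and 101.8 and 111.5 in CC-CJ. Hap1, which takes part in GABA-A receptor trafficking, measured 518.2 and 527.9 in CC and 336.4 and 333.7 in CC-CJ (M -0.64, adjusted p = 0.0139). Gephyrin (Gphn), the scaffold of inhibitory synapses, measured 327.5 and 296 in CC and 217.8 and 186 in CC-CJ (M -0.63, adjusted p = 0.0107). Cnih2, an AMPA receptor auxiliary protein, had the smallest fall of the 4 (M -0.45, adjusted p = 0.041). CC did not overlap with CC-CJ in any of the 4, which were picked by their call in this same comparison. The gap is thus a description and no further support. The same 4 genes were the ones called higher in CC than in AA-CJ (2.58% of all genes), by 1.06 (Hap1), 0.97 (Gphn), 0.95 (Homer2) and 0.73 (Cnih2) on the log2 scale. Between CC-CJ and AA-CJ limma called none of the 39, against 1.94% of all genes called higher and 1.15% lower. An unadjusted p under 0.05 was seen in 9 of the 39 and in 4841 of all 21426 genes. The nearest to a call stood on both sides of 0, with M of 0.42 for Hap1 (adjusted p = 0.0546), -0.45 for Gripap1 (0.0674), -0.67 for Gabarap (0.0689) and 0.34 for Gphn (0.0694).

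Upstream sequences of subunits called lower after cold jet are shown as a description, and shared regulation was not tested. They are rat sequences, whereas the plated neurons were from mouse. RefSeq promoters of build GRCr8 were matched by symbol for 30 of the 41 subunits. Among them were 4 of the 5 called lower, and Gria1 had no entry. The 250 bases before the annotated start, on the strand of the gene, are given for Grin1 (chr3:28528755-28529004, minus strand), Gria4 (chr8:10319882-10320131, minus strand), Gabrb1 (chr14:36902894-36903143, minus strand) and Gabbr2 (chr5:66083696-66083945, minus strand). Capitals mark a GC box (CCGCCC) or a cAMP response core (CGTCA), each on either strand.
Grin1: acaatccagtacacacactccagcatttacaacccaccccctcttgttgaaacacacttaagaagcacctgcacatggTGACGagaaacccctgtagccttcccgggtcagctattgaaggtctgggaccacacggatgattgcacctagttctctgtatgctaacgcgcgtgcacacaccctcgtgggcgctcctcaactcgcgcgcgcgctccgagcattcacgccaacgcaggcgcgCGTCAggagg
Gria4: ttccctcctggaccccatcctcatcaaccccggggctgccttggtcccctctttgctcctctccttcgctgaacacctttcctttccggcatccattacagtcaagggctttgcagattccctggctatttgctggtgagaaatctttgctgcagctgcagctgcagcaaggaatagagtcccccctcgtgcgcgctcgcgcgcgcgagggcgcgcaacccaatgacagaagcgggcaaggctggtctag
Gabrb1: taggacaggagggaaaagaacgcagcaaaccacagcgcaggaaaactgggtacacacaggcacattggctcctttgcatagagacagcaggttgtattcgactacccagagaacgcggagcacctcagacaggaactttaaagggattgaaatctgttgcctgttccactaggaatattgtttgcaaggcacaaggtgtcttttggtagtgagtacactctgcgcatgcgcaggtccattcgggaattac
Gabbr2: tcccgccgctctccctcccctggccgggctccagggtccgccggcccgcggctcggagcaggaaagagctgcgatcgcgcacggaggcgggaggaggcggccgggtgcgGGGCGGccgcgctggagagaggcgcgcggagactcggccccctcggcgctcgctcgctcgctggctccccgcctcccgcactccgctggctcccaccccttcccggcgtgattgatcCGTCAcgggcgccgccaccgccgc
The G+C content was 57.6% in Grin1, 59.6% in Gria4, 49.2% in Gabrb1 and 78.8% in Gabbr2, against a median of 58.6% over the 30 subunit promoters and 52% over all 27457 promoters. The cAMP response core occurred in Grin1, Gabbr2, Grik2 and Gabrr1, that is in 4 of 30, and in 19% of all promoters. The GC box occurred in 11 of 30, Gabbr2 among them, and in 32.4% of all promoters. A TATA box (TATAAA, either strand) was found in Gabra3 and Gabrr2, neither of which was tested, and in 13.1% of all promoters. Gria4 and Gabrb1 held none of these 3 motifs. Such matches describe the letters of the window only.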

How the data were processed

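RNA of CC, CC-CJ and AA-CJ was measured on 4 Agilent whole rat genome arrays. The authors deposited spot intensities on a linear scale, written by Feature Extraction 9.5.1.1, with Agilent's log10 ratio of Cy5 over Cy3 beside them. A series table holds the authors' normalised log2 ratios, for which their methods name OLIN and OSLIN. Scale and direction are not stated there, and a comparison with the scanner values (correlation 0.923 to 0.969 per array over probes, after the sign was turned) gave log2 of Cy5 over Cy3. Centring stays unknown, and the column medians ran from -0.0247 to 0.00847. It served as an alternative.

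Mean signals were corrected by normexp (offset 50) and normalised by loess (span 0.3) within arrays, with limma 3.58.1 in R 4.3.3. Control spots and spots with outlier marks were left out, and spots of a probe and kept probes of a gene were averaged. Levels in single channels were scaled by Aquantile between arrays. Names were updated through RefSeq for 10835 probes. lmFit took all 4 arrays with 1 coefficient per comparison and no replicate block, with 2 residual degrees of freedom and 4.72 more from the eBayes prior. Bounds compare the bright group with the dim probe's signal, or the lowest one well above background where that is higher. They are taken on means of the arrays and leave out the spread between arrays.

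The members and lists were chosen with earlier results of these data known. Some subunits that match the name rule are not reported here, but they stayed in the fit over all genes. The rule for naming took members called in any comparison with the same sign on both arrays, members detected in AA-CJ, genes whose probes differed in sign or by more than 1 on the log2 scale, and up to 4 partner genes per comparison and direction. Shares remaining of inhibitory neuron and microglia markers, and shares from CC-CJ of the AA-CJ arrays, were added after the data were examined. Tested on simulated data with 200 of 21426 genes changed by a log2 of 1, the fit recovered 95.5% in CC-CJ versus CC, with 6.37% of calls false, and 96% in CC-CJ versus AA-CJ, with 8.57% false. Of the same genes, CC versus AA-CJ recovered 76% and 77%. With a log2 of 0.5 it recovered 0% in each comparison. That share holds for 200 changed genes of equal size and is not the sensitivity in these data. Here 503 to 663 genes were called per comparison, and Cnih2 passed with M of -0.45 in CC-CJ versus CC. Alternatives covered background correction, offset, normalisation, source of values, filter, probe choice, prior, pairing and each array left out. Sequences came from the RefSeq promoters of GRCr8, and probe positions are those of rn4 in the files. Probe sequences were not used here.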

Additional observations from a re-analysis of the deposited data

How the results depend on the processing

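The number of subunits called lower in CC-CJ than in CC was 5, and became 14 with median centring in place of loess (median of all genes -0.59). Under that centring 14376 of all 21426 genes were called in either direction, against 503 in the main fit. The number became 3, of which 2 (Gabbr2 and Grin1) were among the 5, with a strict filter that asked every probe to clear background in each channel. Leaving out 1 array gave 3 to 5, with 3 without the second CC array, where Gria1 and Gabrb1 were lost. In CC-CJ versus AA-CJ the count of 1 became 9 with median centring and 0 with the strict filter, which removes Gabrb1. With median centring 13255 of all genes were called there in either direction, against 663 in the main fit. The subunit count stayed at 1 whichever single array was left out. In CC versus AA-CJ the 5 became 3 with the strict filter (again 2 of the 5), 3 with Feature Extraction's processed signals and 3 to 4 without 1 array. The 3 came without either AA-CJ array, where Gria1 and Gria4 were lost. The strict filter keeps fewer genes by construction, and the cause of the other changes was not tested. Gria4 kept only the probe with the smaller M there (M -0.16, adjusted p = 0.486).

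With the replicate block, 4, 1 and 3 subunits were called in the 3 comparisons. Replicate numbers do not pair samples by their labels, and deviations of same-numbered arrays had a correlation of -0.11. A crossed replicate block, chosen after seeing the data, gave 5, 1 and 5. Gabrb1 in CC-CJ versus CC (adjusted p = 0.06) was lost under the block, as were Gria1 and Gria4 in CC versus AA-CJ (0.0798 and 0.0749). With processed signals Gabrb1 was lost too (0.203), as were Gabbr2 and Gria4 in CC versus AA-CJ (0.0776 and 0.0542), each with a larger difference than before (-0.79, 1.67 and 2.31). None of the called subunits changed direction under any setting run.

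The median over tested subunits moved more readily. For CC-CJ versus CC it was -0.36 with processed signals, -0.31 with an offset of 16, -0.75 with median centring, -0.098 with no filter and -0.28 to -0.19 without 1 array. For CC-CJ versus AA-CJ it was 0.27, 0.068, -0.0063 and 0.013 under the same settings, 0.061 with the authors' values, -0.053 with the strict filter, 0.043 with the brightest probe per gene and 0.0047 to 0.039 without 1 array. For CC versus AA-CJ it was 0.78, 0.38 and 0.39 under the first 3 settings and 0.12 with no filter. The median share remaining was 43.4% with no AA-CJ level subtracted, 8.66% with processed signals, 9.34% with an offset of 16 17% without Aquantile and 5.85% with the CC-CJ readings on the AA-CJ arrays.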
